A study of Mus musculus with 2 samples.

Results

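The genes described are the neural cell adhesion molecules Ncam1 and Ncam2, the L1 family members L1cam, Chl1, Nrcam and Nfasc, and the polysialyltransferases St8sia2 and St8sia4. These 8 genes were taken by name, through their Ensembl identifiers, from 43346 genes in the deposited tables, and no measured value entered the choice. RNA came from forebrain of untreated, healthy mice of strain B6NTac;B6NCrl/Lap at an age of 0 days, that is on the day of birth, with males and females pooled. The 2 libraries form 1 group (n = 2) and are labelled as separate isolates, replicate 1 from 15 mice and replicate 2 from a pool of unstated size. Both carry the same donor identifier in the labels, so each SD describes the spread between these isolates only. The design holds no second condition, so the comparisons are between genes, between the transcripts of a gene, and between the 2 libraries.

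NCAM and L1 proteins are immunoglobulin-domain adhesion molecules at the surface of growing axons and migrating neurons, where they bind each other, contactins, growth factor receptors and, through their cytoplasmic parts, the ankyrin and spectrin skeleton. St8sia2 and St8sia4 encode the Golgi enzymes that build polysialic acid, a long sugar chain carried in brain mainly by the fifth immunoglobulin domain of Ncam1 protein, which loosens adhesion and is abundant in the perinatal brain. Alternative exons set how Ncam1 is anchored, whether Nfasc has the neuronal or the glial type of extracellular stalk, and whether L1cam carries the short exons known from neurons.

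Replicate 1 held 62516003 expected counts and replicate 2 held 65912060, and these 8 genes had between 3163 and 64318 counts each. Protein-coding genes took 13.5 and 22.0% of the deposited TPM (a level scaled by transcript length and by the total of the library) in replicates 1 and 2, so levels are given as coding TPM, in which TPM is rescaled to its full total over protein-coding genes. All 7 forebrain markers were at 1 coding TPM or more in both libraries, among them Lhx2 (84.8 and 79.6 in replicates 1 and 2) and Tbr1 (36.8 and 41.5). By scaled counts, the log2 ratios of replicate 2 over replicate 1 of the 7 ran from -0.84 to 0.59. Of 8 hindbrain and spinal cord markers, 7 were at 0 in both libraries. Neuronal markers summed to 6068 and 5988 coding TPM and astroglial and radial glial markers to 1647 and 1494. Meningeal fibroblast markers summed to 132 coding TPM in replicate 1 and 484 in replicate 2, with 3 of 4 more than 2-fold higher in replicate 2, and skeletal muscle markers summed to 25.3 and 12.98. The part of these differences in the values that follow was not tested. In bulk tissue, fewer cells of a type and less RNA per cell cannot be told apart.

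The exons on which the isoform results turn are short, and most were read from the GENCODE M21 transcripts (GRCm38/mm10) with 20 bases of the neighbouring exons on each side. Each is written 5′ to 3′ on the strand of the gene, with the alternative exon in capitals, and each is a multiple of 3 bases long, so that its use keeps the reading frame. The first line is the VASE exon in the fourth immunoglobulin domain of Ncam1 (chr9:49550540-49550569), known for dampening the support that NCAM gives to neurite growth, and the line under it is the same junction without the exon, as in the leading Ncam1 transcript. The next line joins a 15 nt exon (chr9:49541888-49541902) and a 3 nt exon (chr9:49531974-49531976), which lie at the boundary between the fibronectin type III domains where muscle forms of Ncam1 take further exons. The L1cam lines are the 15 nt exon (chrX:73867022-73867036) near the start of the protein and the 12 nt exon (chrX:73855652-73855663) of the cytoplasmic part, which completes a tyrosine-based sorting signal. The Nrcam line is the 30 nt exon (chr12:44566840-44566869) held by the leading Nrcam transcript. The 2 Nfasc lines are an 18 nt exon (chr1:132637864-132637881) and a 51 nt exon (chr1:132627872-132627922) that tell the leading Nfasc transcript from others.
Ncam1 30 nt exon included: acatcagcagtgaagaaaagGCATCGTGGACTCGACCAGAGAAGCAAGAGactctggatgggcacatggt
Ncam1 30 nt exon skipped: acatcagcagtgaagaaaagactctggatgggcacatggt
Ncam1 15 nt and 3 nt exons: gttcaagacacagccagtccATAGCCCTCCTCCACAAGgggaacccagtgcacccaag
L1cam 15 nt exon: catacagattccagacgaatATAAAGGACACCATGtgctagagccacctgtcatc
L1cam 12 nt exon: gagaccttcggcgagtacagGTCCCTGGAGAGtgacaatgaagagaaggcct
Nrcam 30 nt exon: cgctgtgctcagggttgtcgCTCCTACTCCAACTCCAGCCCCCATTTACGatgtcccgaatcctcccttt
Nfasc 18 nt exon: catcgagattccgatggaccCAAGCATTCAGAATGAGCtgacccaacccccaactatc
Nfasc 51 nt exon: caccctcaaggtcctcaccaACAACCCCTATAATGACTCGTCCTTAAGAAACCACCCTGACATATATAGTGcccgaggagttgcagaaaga

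The 237 nt exon that marks the neuronal form of neurofascin (chr1:132588074-132588310) is shown without flanks, because its composition stands out. It is the first of 3 exons that the neuronal form holds and the glial form lacks. Its in-frame threonine codons, which have the letters ACN, are in capitals. Of its 78 complete codons, 33 (42.3%) were ACN. Over the coding exons of the same transcript, this exon included, 108 of the 1214 codons that lie complete within an exon (8.90%) were ACN. The exons of 117 and 153 nt that follow it had 7.89 and 18.0% ACN codons, so the first of these did not share its composition.
Nfasc 237 nt exon: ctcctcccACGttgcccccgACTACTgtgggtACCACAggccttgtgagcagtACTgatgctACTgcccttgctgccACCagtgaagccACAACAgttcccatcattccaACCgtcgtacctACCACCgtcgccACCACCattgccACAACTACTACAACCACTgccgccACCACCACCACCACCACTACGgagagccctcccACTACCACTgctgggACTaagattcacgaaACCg

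All 8 genes were expressed in newborn forebrain, and Ncam1 was the highest of them. Ncam1 (ENSMUSG00000039542.11, chr9:49502136-49798925, minus strand), the main carrier of polysialic acid, stood at 386 coding TPM in replicate 1 and 490 in replicate 2, a mean of 438 ± 73.7 (SD, n = 2). This placed it at rank 267 of 21474 protein-coding genes by mean level. Ncam2 (ENSMUSG00000022762.13, chr16:81200697-81626828, plus strand), a relative best known from olfactory axons, stood at 43.0 and 53.2 coding TPM, a mean of 48.1 ± 7.15 and rank 4401. The ranges of the 2 genes were far apart. Within each library, the TPM of Ncam1 was 8.97 times that of Ncam2 in replicate 1 (8.57 to 9.39 from the deposited interval bounds) and 9.22 times in replicate 2 (8.87 to 9.60). The mean ratio was 14.8 for expected counts without length scaling and 5.80 for the leading transcript of each gene alone, above 1 in every case.

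Among the L1 family, Chl1 and L1cam stood well above Nrcam and Nfasc. Chl1 (ENSMUSG00000030077.9, chr6:103510586-103750211, plus strand), the close homolog of L1, had 259 and 284 coding TPM in replicates 1 and 2, a mean of 271 ± 17.5 and rank 514. L1cam (ENSMUSG00000031391.14, chrX:73853778-73896105, minus strand), the founding member, which supports axon growth and fasciculation, had 218 and 247 coding TPM, a mean of 233 ± 19.96 and rank 640. Nrcam (ENSMUSG00000020598.11, chr12:44328885-44601964, plus strand), a partner of contactins and of neurofascin at nodes, had 79.8 and 91.7 coding TPM, a mean of 85.7 ± 8.37 and rank 2396. Nfasc (ENSMUSG00000026442.10, chr1:132564690-132741797, minus strand), which organises the axon initial segment, the nodes and the adjoining glial contacts, had 41.0 and 53.1 coding TPM, a mean of 47.0 ± 8.55 and rank 4495. None of the 4 ranges overlapped.

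The TPM of Nrcam was 0.365 of that of L1cam in replicate 1 (0.345 to 0.381 from the deposited bounds) and 0.372 in replicate 2 (0.354 to 0.384). It was 0.308 and 0.323 of that of Chl1, and 1.95 and 1.73 times that of Nfasc. These ratios kept their direction under every alternative run. That of Nrcam to L1cam moved most, from a mean of 0.369 to 0.742 with expected counts and to 0.598 with leading transcripts alone.

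Both polysialyltransferases were present at nearly the same level. St8sia2 (ENSMUSG00000025789.5, chr7:73939119-74013690, minus strand), the enzyme known as the chief one of the embryonic and perinatal brain, had 57.8 and 72.8 coding TPM, a mean of 65.3 ± 10.6. St8sia4 (ENSMUSG00000040710.6, chr1:95587682-95667571, minus strand), known as the chief one of later life, had 56.8 and 68.7 coding TPM, a mean of 62.8 ± 8.45. They held ranks 3276 and 3415, and their ranges overlapped. The TPM of St8sia2 was 1.02 times that of St8sia4 in replicate 1 (0.946 to 1.10 from the deposited bounds) and 1.06 times in replicate 2 (0.995 to 1.13), so each interval held 1. The mean ratio of 1.04 turned to 0.842 with expected counts and to 0.915 with leading transcripts alone, and the data do not order these enzymes. Ncam1 TPM was 6.68 and 6.74 times that of St8sia2 and 6.80 and 7.13 times that of St8sia4.

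**Figure D1:**
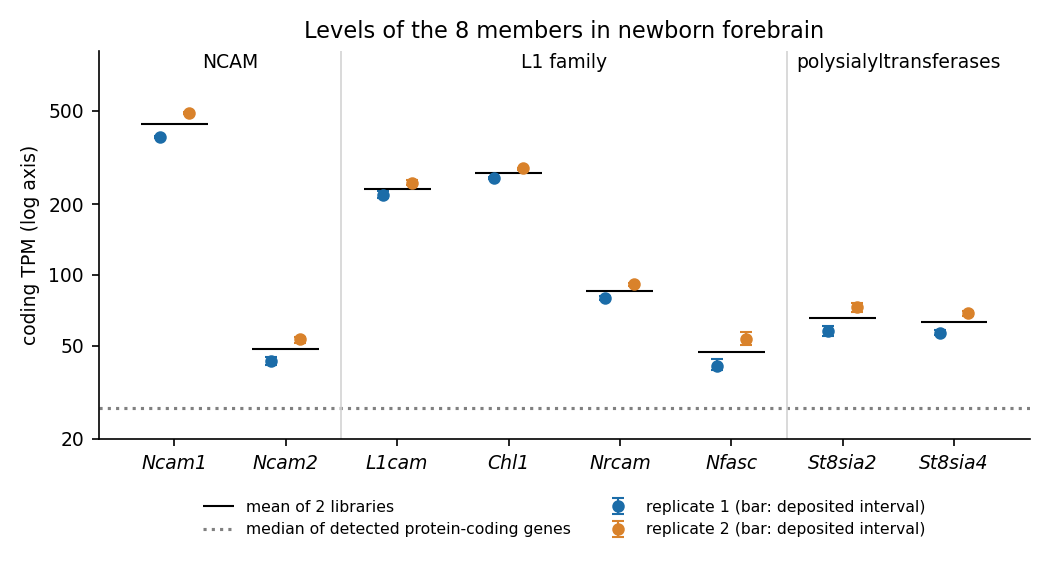
Level of each gene in coding TPM on a log axis, for replicate 1 and replicate 2, with the deposited interval of TPM as the error bar, the mean of the 2 libraries as a black line and the median of detected protein-coding genes (27.0) as a dotted line. All 16 points lie above the dotted line, and each gene is higher in replicate 2 on this scale.

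By mean level the order was Ncam1, Chl1, L1cam, Nrcam, St8sia2, St8sia4, Ncam2 and Nfasc, and it was the same in both libraries. Of the 7 pairs of neighbours in this order, 2 did not differ beyond their spread: St8sia2 with St8sia4, and Ncam2 with Nfasc. Their deposited intervals also overlapped in both libraries. With the leading transcript of each gene alone, the order changed. Ncam1 (269 ± 44.7) and Chl1 (271 ± 17.5) then overlapped, and L1cam stood at 109 ± 15.5. The ranges of Nrcam (59.3 to 71.3), St8sia4 (52.1 to 62.3) and St8sia2 (45.0 to 60.2) overlapped, and St8sia2 also overlapped Ncam2 (41.9 to 50.5). In that setting Ncam2 lay above Nfasc (27.6 to 35.3) without overlap. All 8 genes were at 1 coding TPM or more in both libraries, which held for 63.3% of protein-coding genes. Their median was 75.5 coding TPM, against 27.0 over the 13596 protein-coding genes past that level and 8.25 over all protein-coding genes. Together they made up 0.114% of coding TPM in replicate 1 and 0.136% in replicate 2.

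The 2 isolates gave similar counts for these genes. After TMM scaling, St8sia2 differed most between the libraries, with a log2 ratio of replicate 2 over replicate 1 of 0.25 (SE 0.026, counting error only). The ratio was 0.22 (SE 0.024) for Nfasc, 0.19 (SE 0.0088) for Ncam1 and 0.16 (SE 0.034) for Ncam2. It was 0.14 (SE 0.015) for L1cam, 0.12 (SE 0.024) for St8sia4, 0.05 (SE 0.017) for Nrcam and -0.02 (SE 0.0095) for Chl1. With 1 library on each side these values compare the isolates and have no replicate check.

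All 8 genes had a mean of 10 counts or more, the filter for this comparison, and 0 of 8 differed by 2-fold, while 11% of the 17544 genes tested did. At 1.5-fold the count was again 0 of 8, beside 22.4% of the genes tested. The ratio was above 0 for 7 of 8 genes and for 49.8% of the genes tested, and their median was 0.15 against -0.0027 for the genes tested. On the coding TPM scale, where the median of the genes tested was itself at 0.15, all 8 were above 0, as were 65.4% of the genes tested, from 0.13 for Chl1 to 0.37 for Nfasc. Of the genes averaging 100 counts or more, as all 8 did, 2.76% were past 2-fold.

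**Figure D2:**
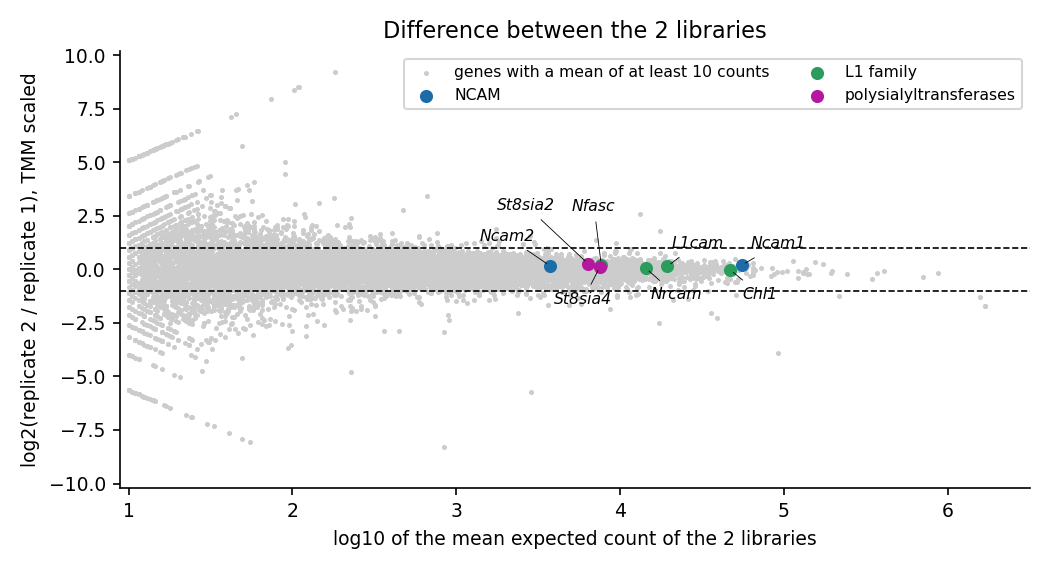
Log2 ratio of replicate 2 over replicate 1 after TMM scaling, against the log10 of the mean expected count, with the 17544 genes tested in grey, the 8 genes in colour and 2-fold marked by dashed lines. The 8 genes lie between -0.02 and 0.25, inside the dashed lines.

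Most Ncam1 RNA was assigned to transmembrane forms without the long cytoplasmic exon. Ncam1-204 (6050 nt), which encodes the transmembrane form with the shorter cytoplasmic part, held 61.4% of Ncam1 TPM in replicate 1 and 61.3% in replicate 2. Ncam1-202, of the same type but with an exon of 181 nt in place of 178 nt, held 12.9 and 10.9%. These transcripts together came to 73.2 ± 1.56% of Ncam1 TPM, or 287 and 354 coding TPM. Ncam1-205 (6564 nt), with the 801 nt exon (chr9:49506853-49507653) that lengthens the cytoplasmic part and is known from neurons, held 23.6 and 24.1%, or 91.0 and 118 coding TPM. The remaining transcripts that end in another last coding exon held 2.08 and 3.72%, or 7.97 and 18.3 coding TPM. Among them Ncam1-201, whose 74 nt last coding exon (chr9:49517509-49517582) belongs to the form anchored by glycosylphosphatidylinositol, had 1.33 and 2.44%, and 261 and 661 counts.

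The 801 nt exon was included in 24.1 and 25.1% of the TPM of coding transcripts spanning it. The VASE exon had an inclusion of 23.6 and 24.1%, and so had the 15 nt and 3 nt exons printed above. All 4 exons lie on the single transcript Ncam1-205 in this annotation, apart from a 146 nt fragment that shares the 15 nt exon. Their values are therefore 1 measurement and not 4, and the use of VASE apart from the long cytoplasmic exon cannot be read from these tables. Ncam1-205 also lacks its first coding exons in the annotation. The 48 and 42 nt exons of the muscle-type insert lie only on that 146 nt fragment, which was listed at 0 and is shorter than the mean fragments of 249 and 269.7 nt, so its level could not be estimated.

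**Figure D3:**
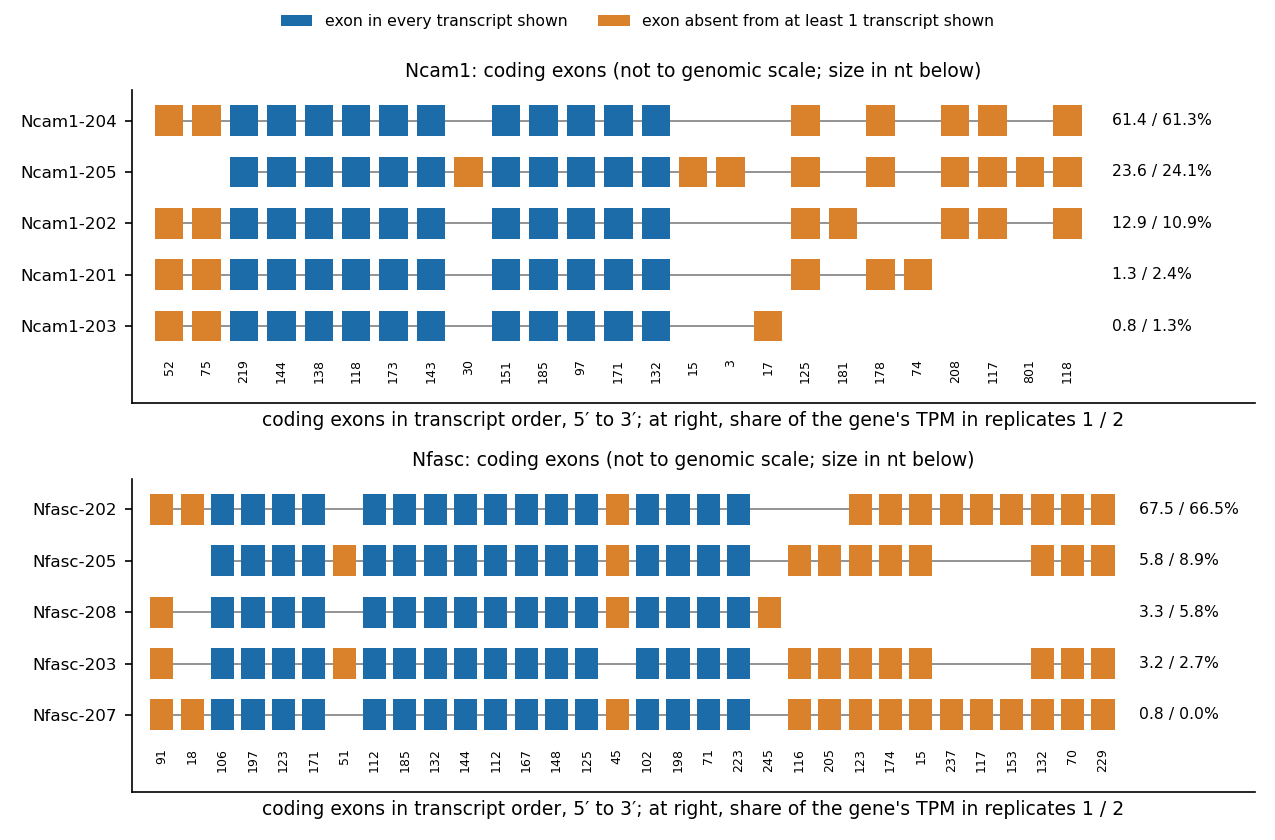
Coding exons of the Ncam1 and Nfasc coding transcripts with a level above 0, drawn at equal width in transcript order and not to genomic scale, with each exon's size in nt below and each transcript's share of the gene's TPM at the right. Orange exons are missing from at least 1 transcript; the first exons missing from Ncam1-205 and Nfasc-205 are missing because these models start late, and the 245 nt exon of Nfasc-208 holds the 116 nt exon beside it.

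Nfasc RNA was mostly of the neuronal type. Nfasc-202 (9739 nt), with the 237 nt threonine-rich exon and the 117 nt (chr1:132584364-132584480) and 153 nt (chr1:132582995-132583147) exons after it, held 67.5% of Nfasc TPM in replicate 1 and 66.5% in replicate 2. That is 27.6 and 35.3 coding TPM. Of the TPM of coding Nfasc transcripts alone its share was 83.9 and 79.3%. Other transcripts had the exons of the third fibronectin type III domain (chr1:132600099-132600214, 116 nt, and chr1:132597765-132597969, 205 nt) and lacked the 237, 117 and 153 nt exons. These transcripts, the form known from myelinating glia, held 9.02 and 11.6% of Nfasc TPM. They came to 3.69 and 6.13 coding TPM, mainly Nfasc-205 at 5.81 and 8.91% of Nfasc TPM. Nfasc-205 is a model of 3476 nt, incomplete at both ends, and its share depended on length scaling. Of Nfasc expected counts it held 2.65 and 4.07%, and Nfasc-202 held 90.5 and 89.6%. Nfasc-208, which ends within this region in a last coding exon (chr1:132599970-132600214) that holds all bases of the 116 nt exon and runs past it, held 3.33 and 5.78%.

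Inclusion of the 237 nt exon was 88.3 and 85.2%, and the 117 and 153 nt exons had the same values because they lie on the same transcripts. Inclusion of the 116 nt exon was 12.1 and 13.8%, and of the 205 nt exon 12.6 and 14.8%, counting transcripts with an exon of the same boundaries. With Nfasc-208 counted as holding the bases of the 116 nt exon, a choice made after seeing the data, the value was 16.1 and 20.7%. The neuronal-type exon exceeded the glial-type exons in both libraries by far more than the spread between them. The 237 and 205 nt exons are spanned by the same 5 coding transcripts, of which only Nfasc-207 holds both. Their values are therefore close to 1 measurement and not 2. The 18 nt exon printed above had an inclusion of 91.3 and 88.7%, and the 51 nt exon, which lies on Nfasc-203 and Nfasc-205, had 11.2 and 13.8%. Of the markers of myelinating oligodendrocytes, Mbp had 22.3 and 26.7 coding TPM and Mag 2.44 and 2.81, and Mog was at 0 in both libraries. Their part in the glial-type share was not tested.

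**Figure D4:**
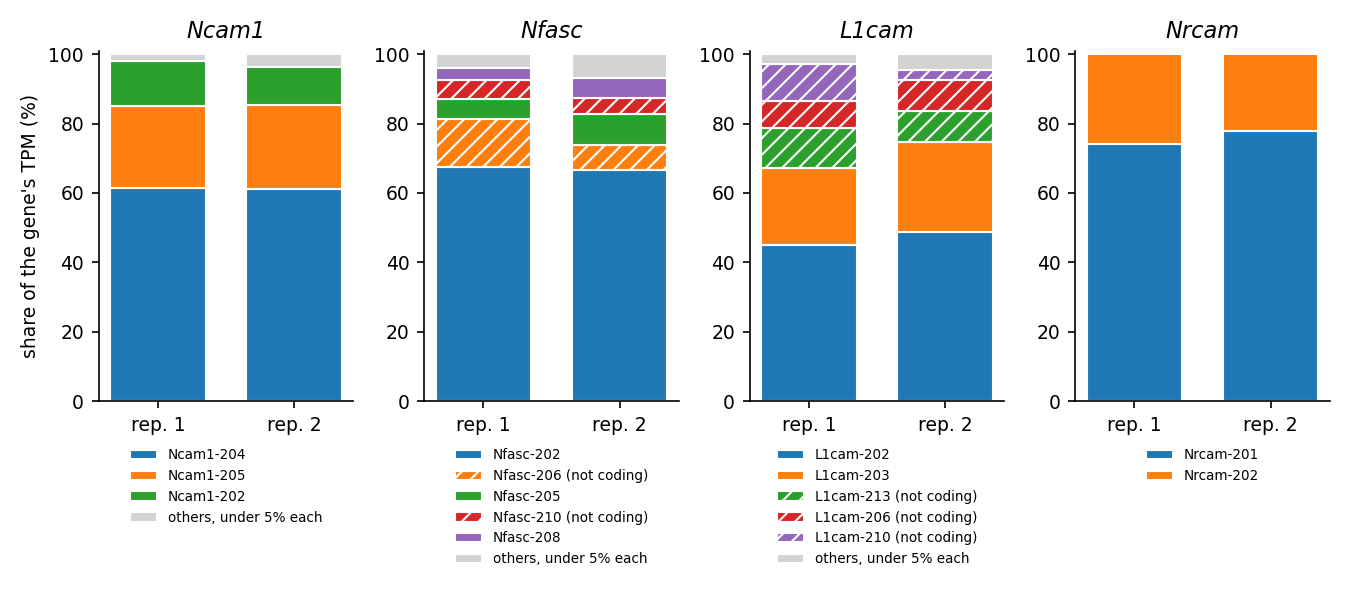
Share of each gene's TPM held by its transcripts in replicates 1 and 2 for Ncam1, Nfasc, L1cam and Nrcam; hatched parts are transcripts annotated as not protein-coding, and grey is the sum of transcripts under 5% in both libraries. The leading transcript of each gene is the same in both libraries, from 45.1% for L1cam-202 in replicate 1 to 77.8% for Nrcam-201 in replicate 2.

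L1cam coding RNA was assigned almost wholly to transcripts with the 15 nt exon and mostly to the transcript with the 12 nt exon. Inclusion of the 15 nt exon was 98.5% in replicate 1 and 100% in replicate 2. The 12 nt exon, whose sorting signal is read by the clathrin adaptor AP-2, was included in 66.2 and 65.3%. L1cam-202 (5113 nt), with both exons, held 45.1 and 48.8% of L1cam TPM, and L1cam-203 (5126 nt), which lacks the 12 nt exon, held 22.0 and 25.9%. L1cam-201, which lacks both, held 1.02% in replicate 1, on 189 counts, and was listed at 0 in replicate 2. The other transcripts with a level above 0 were short ones with retained introns. Only L1cam-201 skips the 15 nt exon among the coding transcripts spanning it, so skipping of that exon alone could not be read. L1cam-202 and L1cam-203 have 29 and 27 exons and differ by more than the 12 nt exon. The inclusion of the 12 nt exon is therefore a share of whole transcripts, not a reading of that exon alone.

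Nrcam had 2 transcripts in the tables. Nrcam-201, with the 30 nt exon printed above, held 74.2 and 77.8% of Nrcam TPM, and Nrcam-202 held 25.8 and 22.2%. Nrcam-201 also holds a 36 nt exon (chr12:44578145-44578180) and a 153 nt exon (chr12:44584835-44584987) that Nrcam-202 lacks. These exons share 1 pair of transcripts, so their inclusion was the same value. The lengths of both transcripts differ between the annotation of the tables and GENCODE M21, from which the exons were read.

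Ncam2 RNA was assigned almost wholly to the transmembrane form. Ncam2-202 held 97.49 and 95.04% of Ncam2 TPM, and Ncam2-201, the form anchored by glycosylphosphatidylinositol, held 2.51 and 4.96%, with 110 and 293 counts. Both Ncam1 and Ncam2 thus had under 5% of their TPM on lipid-anchored forms in each library. Chl1 had 1 transcript in the tables. St8sia4-201 held 91.9 and 90.6% of St8sia4 TPM. St8sia2-201, the full-length enzyme, held 77.7 and 82.7% of St8sia2 TPM. The rest fell on St8sia2-202, an 816 nt model with no annotated end that skips a 63 nt exon (chr7:73976658-73976720) and had 161 and 166 counts against 5054 and 7382 for St8sia2-201.

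Of 38 other genes that act with these molecules, 34 were at 1 coding TPM or more in both libraries, as were 63.3% of protein-coding genes. For the medians of the lists, the comparison is 27.0 coding TPM over protein-coding genes past that level and 8.25 over all protein-coding genes. The 5 genes that make and transport the sialic acid donor were all expressed, with a median of 34.1 ± 1.40 coding TPM. Cmas, which activates sialic acid to the nucleotide donor, was highest at 127 ± 3.49, and Nanp, which removes the phosphate from the precursor, was lowest at 13.3 in replicate 1 and 6.76 in replicate 2. Nanp was also 2-fold lower in replicate 2 (log2 ratio -1.15, SE 0.26), the only gene of its list past that fold. Of the other sialyltransferases of the same type, which act mainly on gangliosides and short chains, 3 of 4 were at 1 coding TPM or more. St8sia3 was highest at 36.9 ± 2.83, below both polysialyltransferases in each library, and St8sia6 was lowest at 1.00 ± 0.377. Among the sialidases, which remove sialic acid, 2 of 4 passed that level, with Neu1 of the lysosome at 35.5 ± 0.36 and Neu4 lowest at 0.812 and 0.0454 on 48 and 4 counts.

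Extracellular partners of the adhesion molecules reached 1 coding TPM in both libraries in 9 of 10 cases, beside 63.3% of protein-coding genes. Their median was 81.0 ± 3.21. Prnp, the prion protein, a binding partner of Ncam1, was highest at 342 ± 0.421, and Gldn, the gliomedin of peripheral nodes, was lowest at 0.636 ± 0.0638. All 12 cytoplasmic partners were expressed, with a median of 250 ± 40.6 coding TPM. Gap43, the growth cone protein, was highest at 1112 ± 59.6, and Msn, which links membrane proteins to actin, was lowest at 15.6 ± 4.72. The 3 sheddases ranged from Adam17 at 16.8 ± 1.06 to Bace1 at 43.2 ± 5.03, the protease known to cleave Chl1. Of these 38 genes, 3 differed by 2-fold between the libraries, against 11% of the genes tested: Nanp and Neu4 were lower in replicate 2 and Neu2 was higher, on 10 and 42 counts.

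**Figure D5:**
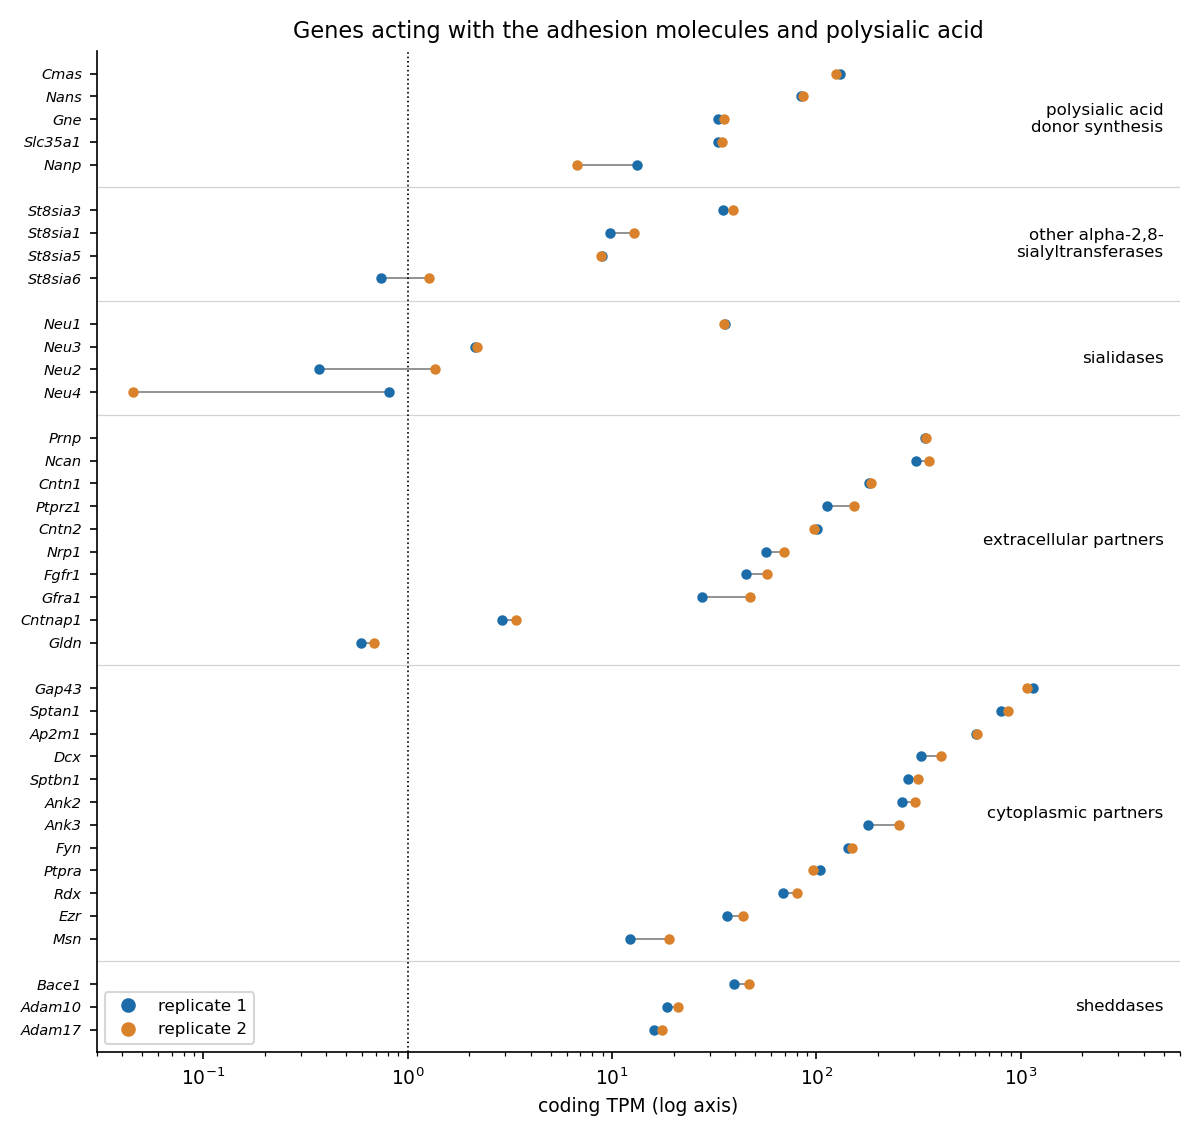
Coding TPM on a log axis of the 38 genes in 6 lists, with replicate 1 in blue, replicate 2 in orange and the level of 1 as a dotted line. The points of a gene lie furthest apart for Neu4 (48 and 4 counts). Genes with more counts also have points apart, such as Nanp (335 and 183 counts) and Msn (964 and 1592 counts). In both libraries 34 genes lie at or above the dotted line.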

How the data were processed

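The authors deposited gene and transcript tables of each library, quantified separately on mm10 and GENCODE M4, per the labels' text files. Which aligner and which quantifier made them is not given in the sources used here; their column names match those of RSEM. Expected counts, posterior mean counts and standard deviations of counts are as the authors deposited them. The deposited TPM has 1 fixed sum per library, which takes in spike-ins and noncoding RNAs, and the deposited interval bounds of TPM (a signal column here) do not state their level. The deposited FPKM is scaled by effective length. The deposited isoform percentages give each transcript's share of its gene's TPM, in percent, per the file headers.

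Of 43346 genes, 42462 matched GENCODE M21 (same assembly), which gave names, types, coordinates, exons and sequences. Transcript lengths in M21 equal those in the tables for all transcripts of Ncam1, Nfasc, L1cam, St8sia2 and St8sia4, and differ for Chl1, for Nrcam and for 1 of 2 Ncam2 transcripts. Coding TPM multiplies TPM by 7.38 and 4.54 in replicates 1 and 2. Log2 ratios used expected counts rounded to whole numbers plus 0.5, with TMM factors of edgeR 4.0.16 in R 4.3.3, over genes averaging 10 counts or more. Size factors of DESeq2 1.42.0 were an alternative. With 1 group of 2 libraries no test between conditions exists and no p-value was computed; a difference was called at 2-fold. SEs combine counting error and the deposited standard deviation, which was 0 for all 8 genes. The SEs of these 8 genes therefore cover counting error only, and that of Nanp also covers assignment error. None covers copying by PCR, since reads copied by PCR and lacking molecular identifiers are not independent. Inclusion of an exon is the TPM of protein-coding transcripts that hold it with the same boundaries over that of those that span it. Python 3.11.15 with numpy 2.4.6, pandas 2.3.3 and matplotlib 3.10.9 served the other steps, which were tested on simulated data.

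Named were the 8 genes, the highest and lowest gene of each list, Ncam1 and Nfasc transcripts of at least 5% in either library, the leading transcript of each other gene, and alternative exons of Ncam1 and Nfasc with an inclusion of 5 to 95%. Other transcripts and exons, those of L1cam, Nrcam, Ncam2 and St8sia2 included, the marker genes and Neu2 were named after their values were seen. The genes and lists were chosen with earlier results of these data known. Some marker genes are not reported here.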

Additional observations from a re-analysis of the deposited data

How the results depend on the processing

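No paired analysis was possible because the design has 1 group. The median level of 75.5 coding TPM was 13.7 as deposited TPM, whose denominator holds short noncoding RNAs, and 61.2 with leading transcripts only. The mean ratio of Ncam1 to Ncam2 (9.10) became 14.8 with expected counts and 5.80 with leading transcripts. That of St8sia2 to St8sia4 (1.04) reversed to 0.842 with expected counts and 0.915 with leading transcripts, and was 1.09 with protein-coding transcripts only. Nrcam to L1cam (0.369) became 0.742, 0.598 and 0.518 under these 3 settings. Nrcam to Chl1 became 0.240 with leading transcripts, and Nrcam to Nfasc (1.84) became 2.08 with leading and 2.24 with protein-coding transcripts. Expected counts carry no length scaling, and the transcript settings were added after seeing the data. The share of genes past 2-fold (11%) was 23.6% with no filter, 2.76% at 100 counts and 22.4% at 1.5-fold. At 1.5-fold, 0 of 8 genes passed. The count filters could not change the 0 of 8, because all 8 genes are above each of them. The Chl1 log2 ratio of -0.02 reversed to 0.13 in coding TPM. Ncam1-204 held 65.1% of Ncam1 counts. Nfasc-202 held 90.1% of Nfasc counts, 81.6% of protein-coding TPM, 68.5% among transcripts of at least 500 nt and 65.8% by posterior means. Inclusion of the Nfasc 116 nt exon (12.9%) became 18.4% with exons of other boundaries counted. Settings also included FPKM, posterior means and DESeq2 size factors. Over all of them, 65 values that answer a comparison stayed within the SD between the libraries or, for counts, within 1.5 times. Another 20 moved further and 2 reversed. The 65 include values with a replicate left out, which with 2 libraries lie within the SD by arithmetic and are no check. Of the other values, 130 stayed within their SD, SE or count limit, 28 moved further and 1 reversed. Leaving out a replicate gave median levels of 68.8 to 82.2, and ratios of 8.97 to 9.22 for Ncam1 to Ncam2 and 1.02 to 1.06 for St8sia2 to St8sia4. Depth limits the minor transcripts: Ncam1-201, Ncam2-201 and the glial-type Nfasc-203 and Nfasc-205 rest on 105 to 661 counts each.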

Other observations

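Transcripts annotated as not protein-coding, mostly short pieces with retained introns, held 31.9% of L1cam TPM in replicate 1 and 25.3% in replicate 2, but 4.79 and 3.40% of L1cam counts. For Nfasc they held 19.4 and 16.1% of TPM and 3.36 and 2.61% of counts, and for St8sia4 4.49 and 5.46% of TPM and 2.51 and 3.07% of counts. The shortest of them were listed at levels that rest on few reads: Nfasc-206 (750 nt, retained intron) had 13.9 and 7.23% of Nfasc TPM on 62.6 and 44.4 counts, and Nfasc-209 (326 nt) had 0 and 4.07% on 0 and 3.01 counts. L1cam-210 (813 nt) had 10.6% of L1cam TPM in replicate 1 and 2.91% in replicate 2, while L1cam-206 (856 nt) had 7.72 and 8.89%. With protein-coding transcripts only, the level of L1cam was 166 ± 25.2 coding TPM, against 233 ± 19.96 over all its transcripts, and that of Nfasc was 38.7 ± 8.17 against 47.0 ± 8.55.

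St8sia4-204 (10027 nt) is a protein-coding transcript whose last coding segment (chr1:95627506-95627800, 295 nt) runs past the end of a 294 nt coding exon of St8sia4-201. It held 3.64 and 3.91% of St8sia4 TPM with 443 and 631 counts.

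Of the annotated genes that overlap these loci, 10 were not analysed here. Arhgap4, which overlaps L1cam on the same strand, had 116 and 267 counts, against 16641 and 22241 for L1cam. Gm37642, on the strand of St8sia4, had 61 and 69 counts.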
